A study of Mus musculus with 20 samples.

Results

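Neu-NT tumors carry the genotype MMTV-Cre;Flox-Neo-Neu-NT. The MMTV promoter, active mainly in mammary epithelium, drives Cre recombinase there, and Cre switches on an activated form of the receptor tyrosine kinase Neu (ErbB2). The libraries titled Neu tumor n1 to n3, each made from 1 cryosection of 30 µm of a mammary tumor, are called Neu-NT sections 1 to 3 here. They were compared with the libraries titled WT n1 to n3, made from wild-type mammary organoids, which are fragments of normal gland cultured for 6 days. The culture protocol in the labels, worded for organoids of MMTV-PyMT tumors, names a basement membrane gel (Matrigel) and the growth factor FGF2. Both groups are of the FVB strain. These are 6 of the 20 libraries of the series, picked by title, and all genes were described: of 45318 gene IDs, 18698 had enough counts to be tested. The 3 sections of MMTV-PyMT tumors, in which the polyoma virus middle T antigen drives the tumor, served for a comparison between tumor sections. A section holds every cell of the tumor at that place, whereas an organoid is mostly epithelium in culture, so tissue, culture and genotype differ together and cannot be told apart. The labels do not say whether the libraries of a group came from separate animals. The spread behind every p-value is thus that of the samples and may be technical. The main fit estimated it over all 20 libraries, in 7 groups.

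ErbB2 has no known ligand of its own and signals by pairing with ErbB3, EGFR or ErbB4, which bind the ligands of the EGF and neuregulin families, and the pairs drive the MAPK and PI3K pathways. In the Neu-NT model the activated allele lies at the mouse Erbb2 locus itself, and tumors of the model are known to gain copies of the chromosome 11 stretch around it. The normal gland has an inner luminal layer, which holds hormone-sensing cells and the precursors of milk-secreting cells, and an outer basal layer of contractile myoepithelial cells.

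The 6 libraries held 21958547 to 45585014 reads counted on genes, and 1.23 to 2.66% of these were mitochondrial. Epithelial markers were present in all 6, as shown by the adhesion gene Epcam at 1141, 1126 and 1265 CPM (TMM-scaled CPM, read counts relative to library size) in WT organoids 1, 2 and 3 and at 1453, 1558 and 1381 CPM in Neu-NT sections 1, 2 and 3. The luminal keratin genes Krt8 (971 to 1942 CPM over the 6 libraries) and Krt18 (912 to 1592 CPM) and the cadherin gene Cdh1 (365 to 730 CPM) were also high in each, so the defining epithelial markers were present in both groups.

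Neu-NT section 3 stood apart from the other sections before any comparison was made. Over genes, log2 CPM of sections 1 and 2 correlated at r = 0.98, against 0.909 and 0.904 for section 3 with either of them, where WT pairs reached 0.985 to 0.989 (genes are not independent replicates). Section 3 was at least 4-fold above both other sections in 847 genes and at least 4-fold below both in 865. The same counts were 74 and 41 for section 1 and 36 and 155 for section 2. Among genes of at least 20 CPM on average, the milk genes Glycam1 and Wap, the keratin genes Krt19 and Krt14 and the imprinted gene Peg10 were among the 8 with the largest excess in section 3. Peg10 stood at 0.189, 0.0901 and 249 CPM in sections 1 to 3 and at 0.826 to 2.16 CPM in WT organoids. At the other end, the cartilage matrix gene Comp stood at 405, 401 and 0.984 CPM, the glutathione peroxidase gene Gpx2 at 286, 185 and 0.311 CPM and the membrane peptidase gene Mme at 352, 336 and 1.45 CPM. Each result below that rests on section 3 is therefore given with and without it.

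**Figure D1:**
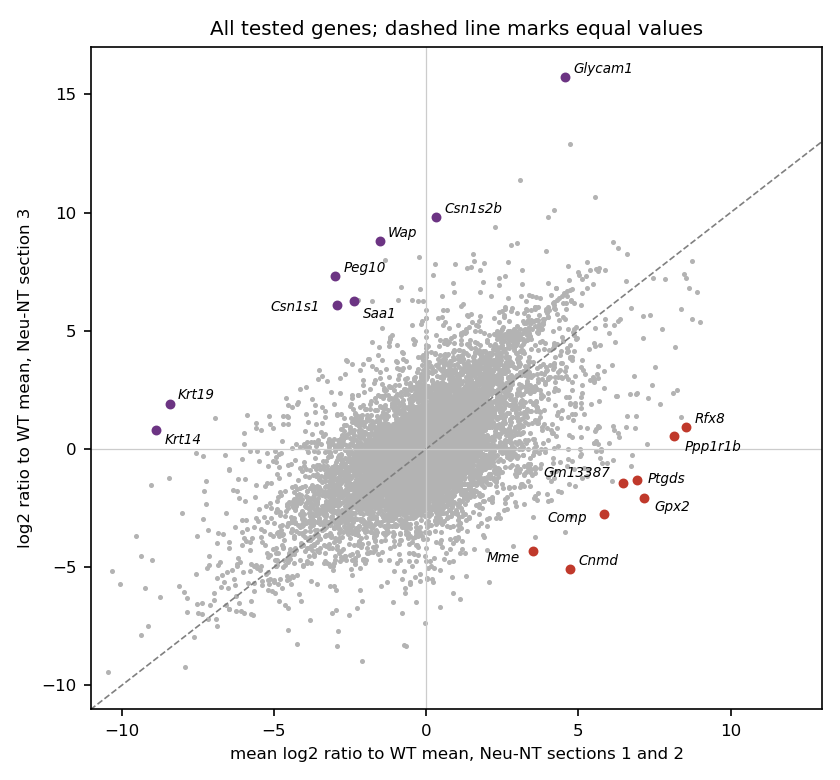
Log2 ratio to the WT mean of each tested gene in Neu-NT section 3 (vertical axis) against the mean of sections 1 and 2 (horizontal axis), with the dashed line at equal values. Purple and red points are the 8 genes with the largest excess and the 8 with the largest deficit in section 3, which lie far from the line, with Glycam1, Csn1s2b and Wap above it and Cnmd, Mme and Comp below it.

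Against WT organoids, 1972 genes were higher in Neu-NT sections (10.5% of those tested) and 1583 were lower (8.47%), by edgeR's quasi-likelihood test with a Benjamini-Hochberg adjusted p under 0.05, which is the meaning of rose, fell and called below. Counts of list members called below are to be read against these shares. The median log2 fold change of all genes tested was 0.03. Without section 3 the counts were 2032 and 2028 (10.9% each), and 2729 of the 3555 calls were kept in the same direction. The 3 sections all lay above the 3 WT libraries in 3626 genes (19.4%) and all below them in 3977 (21.3%). Leaving out a WT library lowered the counts, to 1125 and 1058 without WT organoids 1, 927 and 903 without WT organoids 2, and 1041 and 921 without WT organoids 3. The number of genes that fell was also 832 without Neu-NT section 1. SE is an approximate standard error of the log2 fold change. It was worked back from the test, as the absolute log2 fold change over the square root of the F statistic. It is thus no separate measure of spread, and is rough for genes with almost no counts in a group. Calls of single genes below held when any 1 of the 6 libraries was left out, except where a library is named. Some did not hold in other fits. With only the libraries of the compared groups in the fit, the calls against WT of Cdk12, Krt5, Wap, Cldn7 and Rps6 were lost (adjusted p = 0.0552, 0.0659, 0.125, 0.0535 and 0.085). With no filter on low counts, those of Krt5, Wap, Cldn4, Igha, Igkc and Ifit1 were lost (0.0678, 0.074, 0.0809, 0.0674, 0.0592 and 0.0552), and with sections 1 and 2 summed, those of Krt5, Rps6 and Ifit1 (0.0736, 0.0649 and 0.0577).

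Erbb2 (ENSMUSG00000062312.5, chromosome 11, 98412470 to 98437716, mm10) stood at 90.3, 94.1 and 98 CPM in WT organoids 1 to 3 and at 860, 1077 and 195 CPM in Neu-NT sections 1 to 3. Every section lay above every WT library, and section 3 was the lowest of the sections (log2 fold change 2.92, SE 0.45, adjusted p = 0.000871). Whether reads of the activated allele were counted on Erbb2 was not tested. By these counts, the genes beside Erbb2 rose further. Stard3, a sterol transporter gene, went from 23.7 to 31.8 CPM in WT organoids to 5403, 5097 and 315 CPM in the sections (log2 fold change 6.97, SE 0.84, adjusted p = 0.000182). Grb7, which encodes an adaptor that binds ErbB2, went from 38.8, 39.9 and 57.5 CPM to 2285, 2951 and 436 CPM (5.38, SE 0.59, adjusted p = 0.000108). Both lay above WT in all 3 sections and were lowest in section 3.

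Farther from Erbb2 the sections parted. Med1 (98152154 to 98193293), a subunit gene of the Mediator complex, stood at 80.1, 94.2 and 72.4 CPM in WT organoids and at 5017, 3879.7 and 78 CPM in sections 1 to 3. Cdk12, a transcriptional kinase gene, stood at 2145, 1832 and 31.4 CPM and Ppp1r1b, a phosphatase inhibitor gene, at 596, 821 and 3.57 CPM in the sections, against 48.4 to 60 and 1.78 to 3.01 CPM in WT organoids. Sections 1 and 2 were far above WT in all 3 genes, whereas section 3 lay within or below the WT range for Med1 and Cdk12 and just above it for Ppp1r1b. Of the 11 tested genes from Med1 to Grb7, 10 rose over the 3 sections and 11 rose without section 3. The exception with all sections was Neurod2, which had no count in WT organoids and at most 0.643 CPM in a section.

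Section 3 had its own stretch of high genes on the other side of Erbb2. From Ormdl3 to Mlx (98581256 to 101092207), the 60 tested coding genes had a median log2 ratio to WT of 2.59 in section 3, against -0.11 and -0.21 in sections 1 and 2, and 47 of the 60 (78.3%) were at least 2-fold above WT there, against 7 and 8. Over all 1289 tested coding genes of chromosome 11 the 3 medians were 0.05, 0.02 and 0.16. This stretch was picked after its values were seen. It holds the keratin genes Krt14, Krt17 and Krt19 and the gene of the citrate lyase Acly, which makes cytosolic acetyl-CoA for lipid synthesis and stood at 191, 148 and 4319 CPM in sections 1 to 3, against 301 to 370 CPM in WT organoids.

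**Figure D2:**
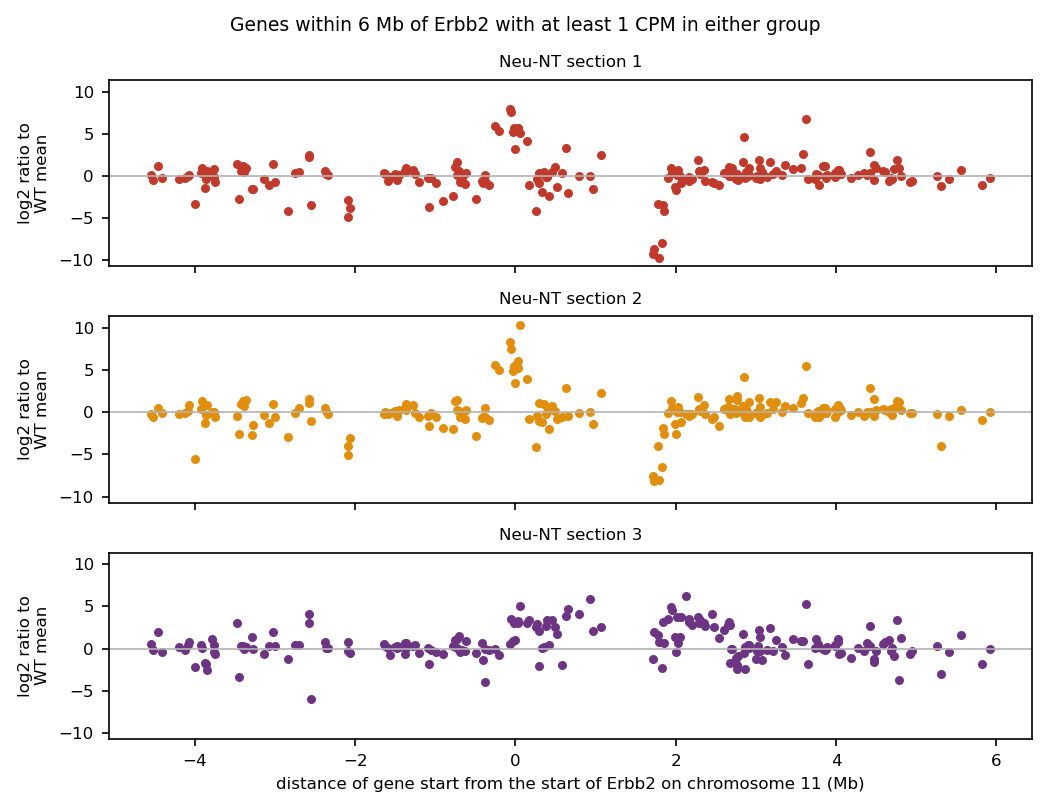
Log2 ratio to the WT mean (vertical axes) of coding genes with at least 1 CPM in either group, by distance in Mb of their start from that of Erbb2 on chromosome 11, for each Neu-NT section. Sections 1 and 2 show a narrow peak of genes at and just before Erbb2, and section 3 shows a broader group of raised genes after it.

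Whole chromosomes also differed between the sections, a pattern noticed after the data were seen. Over 730 coding genes of chromosome 4 with at least 5 CPM on average, the median log2 ratio to WT was -0.92 and -0.97 in sections 1 and 2 and 0 in section 3. In sections 1 and 2, 90.7% and 91% of these genes lay below the WT mean, against 50.3% in section 3. The 903 genes of chromosome 2 had medians of 0.55, 0.52 and 0.01 and the 393 genes of chromosome 12 medians of 0.45, 0.47 and -0.01. The other chromosomes had medians between -0.23 and 0.14 in the 3 sections. WT libraries, each set against the mean of the other WT libraries, stayed between -0.09 and 0.08 on every chromosome. PyMT sections, set against the WT mean, had shifts of their own. In PyMT sections 1 to 3 the medians were 0.46, 0.17 and 0.48 on chromosome 11 and 0.31, 0.04 and 0.39 on chromosome 7. On chromosome 15 they were -0.07, -0.08 and 0.42.

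The shifts of the Neu-NT sections carried into the calls. On chromosome 4, 28.1% of these genes fell in the comparison of all 3 sections with WT and 63.2% without section 3, against 8.78% and 12.1% of the 11225 such genes on all chromosomes. On chromosome 2, 24.7% rose with all sections and 37.7% without section 3, and on chromosome 12, 21.6% and 34.9%, against 11.1% and 11.9% overall. Sections 1 and 2 thus shared their pattern over chromosomes and at Med1 to Grb7, and the labels do not say whether they come from separate tumors. With their reads summed into 1 library, 1516 genes were higher and 942 lower than in WT.

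**Figure D3:**
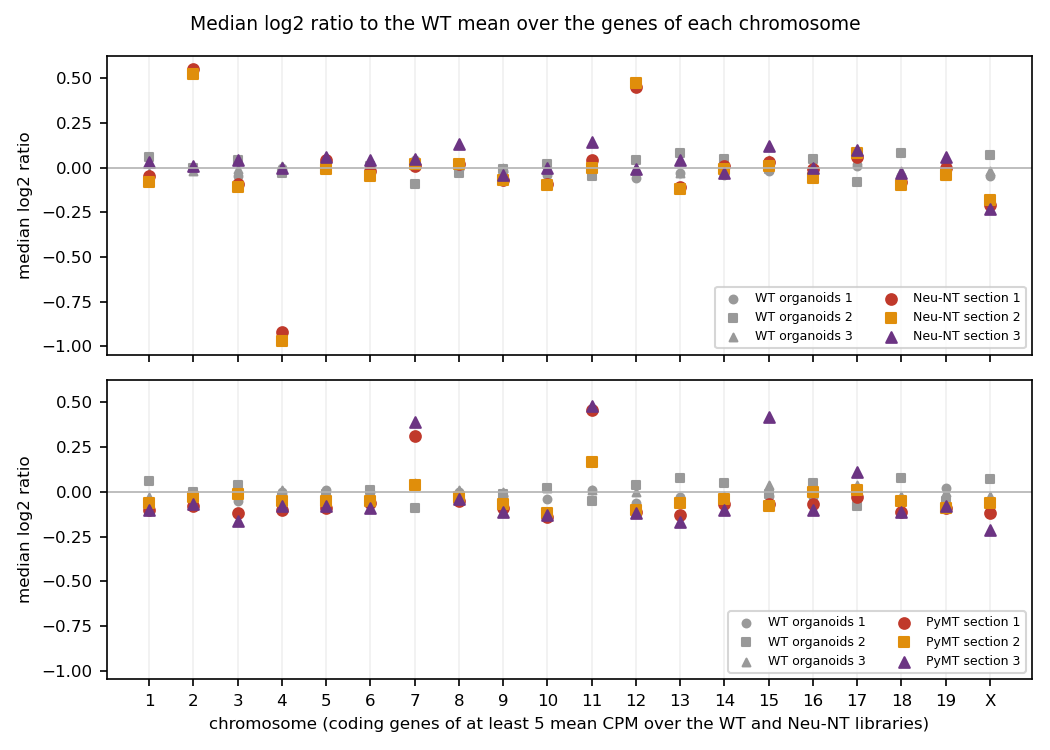
Median log2 ratio to the WT mean (vertical axes) over the expressed coding genes of each chromosome, for Neu-NT sections (top) and PyMT sections (bottom), with WT libraries (grey) set against the mean of the other WT libraries. Neu-NT sections 1 and 2 lie near -0.92 to -0.97 on chromosome 4 and at 0.45 to 0.55 on chromosomes 2 and 12, and section 3 lies near 0 on all 3. PyMT sections 1 and 3 lie at 0.46 and 0.48 on chromosome 11.

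Among receptors and ligands of the ErbB family, the changes went both ways. Of 18 tested genes 4 rose (22.2%) and 5 fell (27.8%), with a median log2 fold change of 0.07. Hbegf, the gene of heparin-binding EGF, a ligand of EGFR and ErbB4, stood at 3.64, 4.46 and 3.63 CPM in WT organoids and at 42.2, 71.3 and 92.4 CPM in the sections (log2 fold change 4.13, SE 0.6, adjusted p = 0.000552). Here section 3 was the highest. The amphiregulin gene Areg, an EGFR ligand of the hormone-responsive gland, went the other way, from 45.7, 62.6 and 84.4 CPM to 4.61, 8.11 and 7.77 CPM (-3.23, SE 0.8, adjusted p = 0.0116, and 0.0515 without Neu-NT section 1). Erbb4, a neuregulin receptor gene, stood at 1.73, 5.21 and 4.58 CPM in WT organoids and at 0.151 CPM in section 1, with no count in sections 2 and 3 (-5.99, adjusted p = 0.00331). The receptor genes Egfr (48.6 to 57 CPM in sections, 60.2 to 80.8 in WT) and Erbb3 (241 to 325 against 193 to 258 CPM) were not called. Grb7 and Erbb2, given above, were the other clear rises of this list. The number that fell was 1 without Neu-NT section 1 and 3 without section 2 or without any 1 WT library.

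Feedback and output genes of the MAPK pathway, which the pathway switches on to restrain itself, split by section. Of 17 tested, 2 rose (11.8%) and 1 fell (5.88%) with all sections, near the 10.5% and 8.47% of all genes. Without section 3, 5 rose and 1 fell. Only 1 rose without WT organoids 1 or 3 or Neu-NT section 1 or 2, and none fell without WT organoids 2 or 3 or Neu-NT section 1 or 2. Dusp5, a nuclear ERK phosphatase gene, stood at 6.2, 5.59 and 7.44 CPM in WT organoids and at 51.5, 51.7 and 83.5 CPM in the sections (log2 fold change 3.28, SE 0.73, adjusted p = 0.00679), high in all 3. Dusp6, a cytoplasmic ERK phosphatase gene, stood at 346, 431 and 497 CPM in WT organoids and at 983, 799 and 270 CPM in the sections. Spry4, a Sprouty inhibitor gene, stood at 14.6 to 19.2 CPM in WT organoids and at 68.4, 54.5 and 12.5 CPM in the sections. For both, sections 1 and 2 lay above WT and section 3 below it (adjusted p = 0.238 and 0.105, and 0.03 and 0.0208 without section 3). The G1 cyclin gene Ccnd1 was placed likewise at 643, 574 and 109 CPM, against 293 to 375 CPM in WT organoids, and was not called.

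Luminal markers were mixed: 5 of 26 tested rose (19.2%) and 6 fell (23.1%), with a median log2 fold change of -0.12. The hormone-sensing genes Pgr and Foxa1 were among those that fell, and other such genes of the list are not given here. Pgr (ENSMUSG00000031870.13, chromosome 9, 8899833 to 8968611), the progesterone receptor gene, stood at 48.7, 77.3 and 71.4 CPM in WT organoids and at 0.0756, 0 and 0.207 CPM in the sections (-9.45, SE 1.21, adjusted p = 0.000266). No section came near a WT library. Foxa1, the gene of a forkhead factor that opens chromatin for the estrogen receptor, stood at 37 to 53.5 CPM in WT organoids and at 0.0378, 0.18 and 0.725 CPM in the sections (-7.2, SE 1.38, adjusted p = 0.00311). The surface marker gene Ly6d went from 508 to 909 CPM to 1.36, 0.766 and 11 CPM (-7.28, adjusted p = 0.000774).

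Luminal genes that rose were led by Lcn2, which encodes the iron-siderophore binding protein lipocalin 2. It stood at 2471, 2080.2 and 3047 CPM in WT organoids and at 11062, 14202 and 8291 CPM in the sections, with no overlap (2.14, SE 0.36, adjusted p = 0.00146). The tight junction genes Cldn3, Cldn7 and Cldn4 rose as well, with log2 fold changes of 1.4, 1.03 and 2.51 (adjusted p = 0.00985, 0.0208 and 0.0321). Their calls were lost without WT organoids 2 (adjusted p = 0.0504, 0.0863 and 0.107), and those of Cldn7 and Cldn4 also without other libraries, section 3 among them (0.091 and 0.088). The number of luminal genes that rose was 3, 1 and 2 without WT organoids 1, 2 and 3, and 3 without Neu-NT section 2 or 3.

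Basal and myoepithelial markers fell: 10 of 22 were lower and none was higher, with a median log2 fold change of -2.46. Without section 3, 16 fell and 2 rose, with a median of -3.63. Acta2, an actin gene of contractile cells, stood at 692, 477 and 668 CPM in WT organoids and at 48.6, 21.5 and 129 CPM in the sections (-3.21, SE 0.61, adjusted p = 0.00277). The contractile gene Cnn1 (calponin; -4.61, adjusted p = 0.00193), the oxytocin receptor gene Oxtr (-4.45, adjusted p = 0.0056) and the P-cadherin gene Cdh3 (-3.59, adjusted p = 0.00174) fell with it. The summed level of the list was 4898 to 5486 CPM in WT organoids and 1457, 1655 and 4064 CPM in sections 1 to 3. In a section, fewer cells of a type and less RNA per cell cannot be told apart.

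The keratin genes of the basal layer showed how section 3 differed. Krt5 (chromosome 15) stood at 780 to 954 CPM in WT organoids and at 0.0756, 0.225 and 26.4 CPM in the sections (-6.61, SE 1.94, adjusted p = 0.0266). It was low in all 3, although its call was lost without WT organoids 2 or 3 or Neu-NT section 1 or 2 (adjusted p = 0.0509 to 0.0715). Its usual partner Krt14, on the chromosome 11 stretch of section 3, stood at 1173, 795 and 610 CPM in WT organoids and at 0.907, 3.2 and 1453 CPM in the sections (-0.82, adjusted p = 0.78, and -8.72 with an adjusted p of 0.00841 without section 3). The luminal keratin gene Krt19, which lies near it, stood at 1433, 1107 and 1130.1 CPM in WT organoids and at 2.84, 4.24 and 4606 CPM in the sections (0.33, adjusted p = 0.903, and -8.43 with an adjusted p of 0.000104 without section 3). Both keratin genes were nearly absent from sections 1 and 2 and above every WT library in section 3. Among squamous and cornified envelope genes, which mark stratified epithelium, 6 of 22 fell and none rose (median -3.41). Dsc3, a desmosomal cadherin gene, went from 40.6 to 65 CPM to at most 0.207 CPM in a section (-9.29, SE 1.93, adjusted p = 0.00477). The number that fell was 2 without WT organoids 2 or 3 or Neu-NT section 1 or 2 and 3 without WT organoids 1.

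Milk and secretory genes held some of the largest rises of the comparison, and section 3 had by far the highest levels. Of 17 tested, 9 rose and 1 fell (median log2 fold change 4.54), while without section 3, 5 rose and 3 fell (median 0.94). Their summed level was 8430.2 to 10763 CPM in WT organoids and 16005, 26100 and 123621 CPM in sections 1 to 3. The beta-casein gene Csn2 (ENSMUSG00000063157.6, chromosome 5, 87692624 to 87699630) stood at 0.129, 0.0213 and 0.0307 CPM in WT organoids and at 18.8, 296 and 24215 CPM in the sections (16.97, SE 2.86, adjusted p = 0.00148, and 11.27 with an adjusted p of 0.00061 without section 3). The gene was above WT in all 3 sections, which differed widely among themselves. Ltf, the gene of the iron-binding milk protein lactoferrin, stood at 34.6, 13.7 and 12.3 CPM in WT organoids and at 626, 1151 and 29243 CPM in the sections (9.0, SE 1.82, adjusted p = 0.00416, and 5.46 without section 3).

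Other milk genes were high in section 3 and in neither of the other sections. The whey acidic protein gene Wap stood at 1.86 to 2.79 CPM in WT organoids and at 0.567, 0.991 and 1039 CPM in the sections (7.22, adjusted p = 0.0276, 0.0851 to 0.1 without any 1 WT library, and -1.58 with an adjusted p of 0.376 without section 3). Csn1s1, an alpha-casein gene, stood at 152 to 169 CPM in WT organoids and at 9.68, 44.4 and 11066 CPM in the sections (4.54, adjusted p = 0.0585, and -2.56 with an adjusted p of 0.0316 without section 3). Sections 1 and 2 lay below WT in both genes and section 3 above. Lalba, whose product is part of lactose synthase, was at 1313 to 1662 CPM in WT organoids and at 6.5, 13.5 and 1212 CPM in the sections, so that there section 3 approached the WT level. Csn3, the kappa-casein gene, was the casein gene raised most evenly, from 1071, 1324 and 2199 CPM to 10685, 13988 and 21949 CPM (3.34, adjusted p = 0.0156, and 0.0605 and 0.065 without WT organoids 1 and 2). The number of milk genes that rose was 4 to 5 without any 1 WT library.

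Transcripts of immune cells were higher in the sections than in organoids by summed level, except for neutrophil and mast cell markers in section 2. Those markers summed to 48.1, 14.9 and 80.9 CPM in sections 1 to 3, against 11.8 to 18.5 CPM in WT organoids. Of 24 macrophage and myeloid markers 19 rose and none fell (median 3.66), of 23 T and NK cell markers 14 rose (median 4.59, or 4.42 with the genes absent from WT set at their lower bound), of 10 dendritic cell markers 7, of 10 B and plasma cell markers 5 and of 12 neutrophil and mast cell markers 5, with none falling. Csf1r, the receptor gene that macrophages need, stood at 2.92, 2.07 and 3.9 CPM in WT organoids and at 55.3, 31.9 and 131 CPM in the sections (4.62, SE 1.02, adjusted p = 0.00672). The lysosomal marker gene Cd68 went from 5.81 to 13.1 CPM to 36, 56.5 and 51.7 CPM (2.44, SE 0.35, adjusted p = 0.00051). Cd8a, a marker of cytotoxic T cells, had no count in WT organoids and stood at 0.756, 0.901 and 5.64 CPM in the sections, at least 95.8-fold higher (adjusted p = 0.0059). Such bounds set a gene without counts at 3 counts over the group and cover counting error only. Csf1r and Cd8a were highest in section 3 and Cd68 in section 2.

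The immune counts leaned on single libraries. The macrophage count was 6, 4 and 10 without WT organoids 1, 2 and 3 and 10 without Neu-NT section 3, and the T and NK cell count was 6, 4 and 9 without the same WT libraries and 8 without section 3. The B and plasma cell count was 1 without any 1 WT library or without section 3. The dendritic cell count was 3 without WT organoids 1 or 3 and 4 without WT organoids 2 or Neu-NT section 1 or 3, and the neutrophil and mast cell count was 3, 1 and 2 without WT organoids 1, 2 and 3. The antibody heavy chain gene Ighm stood at 13, 5.05 and 25.5 CPM in the sections, whereas Igha, the heavy chain of mucosal IgA, stood at 1.25, 1.62 and 83.8 CPM and the light chain gene Igkc at 1.25, 1.35 and 82.3 CPM. IgA transcripts were thus high in section 3, and the calls of Igha and Igkc were lost without it (adjusted p = 0.122 and 0.0839) or without any 1 WT library (0.076 to 0.0966).

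Stromal lists had a smaller share of members called than immune lists. Of 21 endothelial markers 3 rose (14.3%) and none fell (median 1.79). All 3 sections lay above all 3 WT libraries in 16 of the 21 and below them in 1. Their summed level was 39.6, 113 and 108 CPM in WT organoids 1 to 3 and 331 to 403 CPM in the sections. The rises were led by Plvap, a gene of fenestrated capillaries, at 2.45, 5.4 and 6.21 CPM in WT organoids and 136, 107 and 31.1 CPM in the sections (4.29, SE 0.98, adjusted p = 0.00817). Of 10 pericyte markers 3 rose (1 without any WT library or without Neu-NT section 1 or 2), led by the potassium channel gene Kcnj8 (0.826 to 1.77 against 23.3 to 34 CPM, 4.35, adjusted p = 0.00488). Fibroblast and matrix genes had 1 of 22 called, or 2 without Neu-NT section 2 (Fap, a protease gene of activated fibroblasts, 3.64, adjusted p = 0.0271, lost at 0.0831 to 0.0884 without any WT library) and a median of 0.01. Their summed level was 2764 to 4162 CPM in WT organoids and 2520.4, 852 and 5389 CPM in the sections, so the sections lay on both sides of WT. The globin gene Hba-a1 had no count in WT organoids and stood at 54.3, 15.1 and 16.5 CPM in the sections (at least 1128-fold higher, adjusted p = 0.0123). Skeletal muscle markers had no call in 15 tested and summed to 83.5 to 338 CPM in WT organoids and 27.6 to 54.1 CPM in the sections, and 10 Schwann cell and neuron markers had none.

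**Figure D4:**
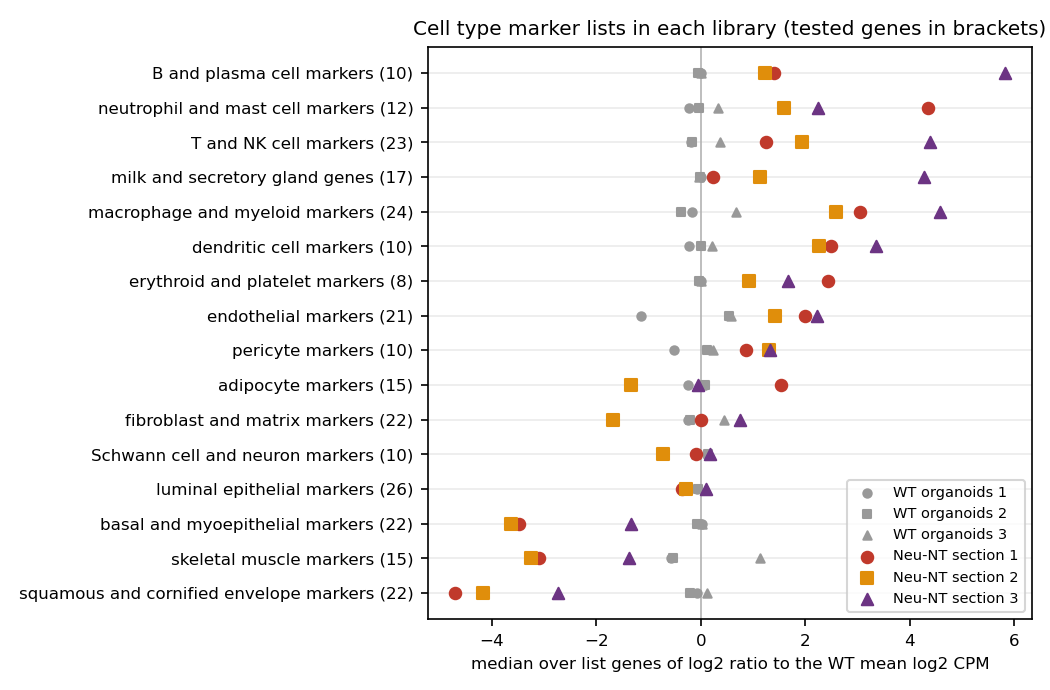
Median log2 ratio to the WT mean over the tested genes of each cell type marker list (horizontal axis), for each Neu-NT section (coloured) and WT library (grey). Immune lists lie to the right of 0 in all 3 sections, basal and squamous lists to the left, and section 3 lies farthest right for milk, macrophage and lymphocyte genes.

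Of the 44 lists, which were chosen with earlier results of these data known, interferon response genes had the largest share of tested members that rose (93.5%). Without section 3 the list from Med1 to Grb7 had the larger share, with 11 of 11 higher against 29 of 31. Type I interferon acts on cells through transcription factors that bind the interferon-stimulated response element in promoters, and its targets encode antiviral proteins. Of 31 tested genes 29 rose and none fell (median 2.83), and the count was 25 to 29 with any 1 library left out. Medians of the log2 ratio to WT were 3.18, 3.33 and 1.93 in sections 1 to 3, and all 3 sections lay above all 3 WT libraries in 29 of the 31. The exceptions were the RNA sensor gene Ddx58, at 74.1 to 81.4 CPM in WT organoids and 49.7, 49.6 and 127 CPM in the sections, and Ifit2, at 17.5 to 22.6 and 16.8 to 25 CPM.

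Part of these genes carry letters like that element in their promoters, and 5 promoter stretches are shown for that reason. In the RefSeq promoter table (GRCm38.p6), which holds 19 of the 31, 9 genes (47.4%) had GAAA, then any 2 bases, then GAAA, on either strand (TTTC, any 2 bases, TTTC on the other) within 250 bases before a start site, against 936 of 27025 genes (3.46%) in all. Among interferon-gamma induced GTPase genes, 11 of 14 had it (78.6%). The stretches below, read 5′ to 3′ on the strand of the gene, are from the 5 genes with the match nearest the start site, its first base lying 14 (Oas1a), 66 (Isg15), 75 (Oas3), 85 (Ifit1) and 120 (Rsad2) bases before it, and capitals mark the matches, overlapping ones joined. They lie at chr5:120907526-120907574 (Oas1a, minus strand), chr4:156200840-156200919 (Isg15, minus), chr5:120777690-120777769 (Oas3, minus), chr19:34640769-34640848 (Ifit1, plus) and chr12:26456528-26456607 (Rsad2, minus).
Oas1a: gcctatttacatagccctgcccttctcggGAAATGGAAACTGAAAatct
Isg15: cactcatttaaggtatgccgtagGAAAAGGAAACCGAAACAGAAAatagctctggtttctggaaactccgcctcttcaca
Oas3: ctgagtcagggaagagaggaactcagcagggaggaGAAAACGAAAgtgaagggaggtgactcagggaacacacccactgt
Ifit1: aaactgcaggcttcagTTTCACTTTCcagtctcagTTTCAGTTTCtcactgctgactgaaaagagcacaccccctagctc
Rsad2: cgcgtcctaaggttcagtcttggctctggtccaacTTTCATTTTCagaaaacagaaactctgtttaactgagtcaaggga

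A match is a description of letters and says nothing of binding. Expression of these 5 genes differed in how the sections lay. Oas1a and Oas3, genes of oligoadenylate synthetases that activate an RNase against viral RNA, stood at 82.6, 77.8 and 89.5 CPM and at 5.71, 12.3 and 21.2 CPM in the sections, against 2.27 to 10.2 and 0.439 to 0.984 CPM in WT organoids (log2 fold changes 3.85 and 4.39, adjusted p = 0.000552 and 0.00134). Isg15, a ubiquitin-like modifier gene, went from 5.06, 9.52 and 15.8 CPM to 56.9, 54.4 and 86.4 CPM (2.7, adjusted p = 0.00369). Section 3 was the highest for these 3 genes.

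Ifit1, which binds viral RNA lacking a host cap, and Rsad2, the antiviral enzyme viperin, were lowest in section 3. Ifit1 stood at 2.97, 11.1 and 11.7 CPM in WT organoids and at 73.5, 73.7 and 23.5 CPM in the sections (2.73, adjusted p = 0.0221, and 0.0521 to 0.0795 without any 1 WT library or Neu-NT section 1 or 2). Rsad2 stood at 0.542, 2.92 and 2.8 CPM and at 48.5, 47 and 4.76 CPM (4.0, adjusted p = 0.00519). Rsad2 lies on chromosome 12, whose genes had medians of 0.45 and 0.47 in sections 1 and 2. Isg15 lies on chromosome 4, with medians of -0.92 and -0.97. The part of such shifts in how the sections lay was not tested for any gene of the interferon list. Bst2, which tethers budding virus to the cell, had the smallest p of the list, at 15.5, 18.5 and 37.5 CPM in WT organoids and 274, 326 and 252 CPM in the sections (3.57, SE 0.42, adjusted p = 0.000168). The interferon factor gene Irf7 rose from 9.03 to 23.9 CPM to 256, 317 and 189 CPM (3.94, adjusted p = 0.00246).

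**Figure D5:**
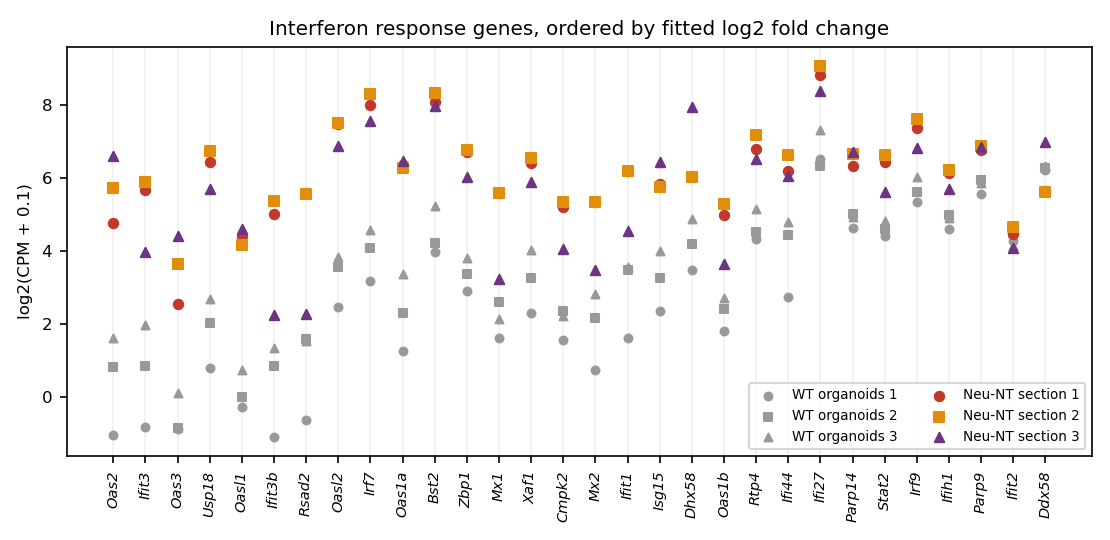
Log2 of CPM plus 0.1 (vertical axis) of 30 interferon response genes in each WT organoid library (grey) and Neu-NT section (coloured), ordered by fitted log2 fold change. The sections lie above the WT libraries in all genes drawn except the last, Ifit2 and Ddx58, and section 3 lies below sections 1 and 2 in many.

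Antigen presentation rose alongside. Of 21 interferon-gamma induced GTPase genes, which act on vacuoles that hold pathogens, 15 rose and none fell (median 2.4), led by Gbp3 at 1.99, 4.97 and 4.76 CPM in WT organoids and 96.7, 97 and 52.5 CPM in the sections (4.39, SE 0.6, adjusted p = 0.00045). Of 17 MHC class I and immunoproteasome genes 10 rose (median 1.39). B2m, the class I light chain gene, stood at 224, 225 and 351 CPM and at 2024, 2746 and 1308 CPM (2.93, SE 0.52, adjusted p = 0.00188), and Nlrc5, the class I transactivator gene, at 0.955 to 1.57 and at 26, 38 and 9.42 CPM (4.35, adjusted p = 0.00336). By summed level class I genes were lowest in section 3 of the sections (5974, 7232 and 5357 CPM) and class II genes highest (720, 464 and 2214 CPM). Of 11 class II genes 7 rose (median 2.84, 5 without section 3, 4 without WT organoids 2), with H2-Aa at 0.704 to 2.31 CPM in WT organoids and 165, 92.9 and 571 CPM in the sections (7.38, SE 1.67, adjusted p = 0.00754). The class I count was 5 without WT organoids 1 or 2 and 6 without Neu-NT section 2. Among chemokine genes 8 of 27 rose and 2 fell. Without WT organoids 1 or 2 or Neu-NT section 2, 3, 2 and 5 rose, and 1 fell without any 1 of the 6 libraries. Cxcl10, an interferon-induced attractant of T cells, went from 0.0774 to 0.338 CPM to 5.1, 4.19 and 1.71 CPM (4.4, adjusted p = 0.00672), and Cxcl15, a neutrophil attractant, was at 13.6 to 20.6 CPM in WT organoids and had 1 count in the sections.

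The share of macrophage and lymphocyte markers moved with these lists over the groups, with summed levels of 211 to 345 CPM in WT organoids and 933 to 3039 CPM in the sections for macrophage markers, and 3.54 to 5.96 and 12.3 to 76.3 CPM for T and NK cell markers. Within the sections the order differed by list. Macrophage markers summed to 1187, 933 and 3039 CPM in sections 1 to 3. Class II genes (720, 464 and 2214 CPM) had the same order. So had chemokine genes (401, 287 and 495 CPM, against 568 to 705 CPM in WT organoids). Interferon response genes (2884, 3303 and 2517 CPM), GTPase genes (644, 774 and 465 CPM) and class I genes (5974, 7232 and 5357 CPM) had the reverse order. The part of macrophages and lymphocytes in the rises of these lists was not tested.

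Proliferation genes did not separate the groups. None of 24 mitosis genes was called (median 0.13, 1 higher without section 3), with the proliferation marker gene Mki67 at 307, 316 and 186 CPM in WT organoids and 413, 202 and 176 CPM in the sections. Of 25 DNA replication genes 2 rose (8%) and 1 fell (4%), below the shares over all genes. None rose without WT organoids 2 or 3, 1 without Neu-NT section 1 and 5 without section 3. The fall was lost without WT organoids 1 or 2 or any 1 section. The retinoblastoma gene Rb1, which holds cells in G1, fell from 176, 234 and 221 CPM to 27, 37.9 and 57.2 CPM (-2.37, SE 0.4, adjusted p = 0.0016), below WT in every section.

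Metabolic lists differed from each other. None of the oxidative phosphorylation genes fell and 1 of 26 rose (median 0.07; none without any 1 WT library or Neu-NT section 1). Of 28 hypoxia and glycolysis genes 5 fell and none rose (median -0.7), among them the lactate dehydrogenase gene Ldha, from 3286, 2746 and 3517 CPM to 1326, 1553 and 1103 CPM (-1.26, SE 0.24, adjusted p = 0.00297), and Car9, a carbonic anhydrase gene that hypoxia induces, from 64.8 to 111 CPM to 11.2, 22.7 and 7.25 CPM (-2.58, adjusted p = 0.00804). The glycolysis count was 2 without Neu-NT section 1 and 3 without WT organoids 2 or 3. Of 23 cholesterol synthesis genes 6 fell and none rose (median -0.84), among them the isoprenoid gene Idi1, from 72, 69.3 and 56.5 CPM to 16.4, 8.92 and 6.83 CPM (-2.62, SE 0.48, adjusted p = 0.00227). That count was 2 without WT organoids 3 or Neu-NT section 2 and 3 without WT organoids 1 or 2 or section 3. All sections lay below WT in Ldha, Car9 and Idi1. Among fatty acid synthesis genes (median -0.13, with summed levels of 3071, 2999 and 8139.7 CPM in the sections against 4656 to 5279 CPM in WT organoids) 3 of 17 fell (1 without WT organoids 2 or 3) and 1 rose (none without any 1 WT library, 2 without Neu-NT section 2), with the elongase gene Elovl6 falling from 116 to 155 CPM to 39, 22.2 and 8.96 CPM (-2.56, adjusted p = 0.00357).

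Ribosomal protein genes leaned lower, and a few genes of protein folding and secretion rose. Of 27 cytosolic ribosomal protein genes 6 fell and none rose (median -0.56), with 11 falling without Neu-NT section 3, 3 without WT organoids 1 or 2 and none without WT organoids 3 or without Neu-NT section 1 or 2. Rps6 (chromosome 4) stood at 1222, 1004 and 1469 CPM in WT organoids and at 384, 437 and 916 CPM in the sections (-1.09, adjusted p = 0.0149, and 0.0624 to 0.0663 without WT organoids 3 or Neu-NT section 1 or 2). Genes of its chromosome had median log2 ratios of -0.92 and -0.97 in sections 1 and 2. The part of that shift in the fall of Rps6 was not tested. Gas5, a noncoding gene whose introns hold small nucleolar RNAs, was lower, from 361 to 519 CPM to 116, 147 and 205 CPM (-1.5, SE 0.32, adjusted p = 0.00524). Of 25 heat shock and unfolded protein response genes 6 rose (24%) and none fell. The chaperone gene Hspa5 (BiP) stood at 714, 620 and 630 CPM in WT organoids and at 1867, 1860 and 1846 CPM in the sections (1.5, SE 0.27, adjusted p = 0.00227), and the sections hardly differed among themselves. The disulfide isomerase genes Pdia6 (1.29, SE 0.22, adjusted p = 0.00163) and Pdia4 (1.01, SE 0.23, adjusted p = 0.00853) rose as well. Lysosome genes rose in 9 of 20 with none falling (median 0.6), with the cathepsin gene Ctsh at 183 to 224 CPM in WT organoids and 435, 541 and 343 CPM in the sections (1.09, adjusted p = 0.00567), and that count was 4 and 3 without WT organoids 1 and 2. None of 13 mitochondrially encoded genes was called.

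Lists of developmental signaling genes had few members that rose. The share that fell was 25% of FGF, 18.8% of Notch, 14.7% of Wnt and 8% of TGF-beta and BMP genes. Over all genes 10.5% rose and 8.47% fell. Fgfr2, the receptor through which FGFs drive branching of the gland, stood at 35, 41 and 30.6 CPM in WT organoids and at 0.567, 0.856 and 4.19 CPM in the sections (-4.26, SE 0.61, adjusted p = 0.000521). Fgfbp1, the gene of a carrier that frees FGFs from the matrix, fell from 35 to 48.8 CPM to at most 0.451 CPM (-7.11, SE 1.26, adjusted p = 0.00189). In all, 3 of 12 FGF genes fell (25%) and 1 rose. Of 34 Wnt genes 5 fell (14.7%) and none rose (median 0.07), among them Lgr5, a receptor gene of stem cells in several epithelia, from 30.9, 47.2 and 31.1 CPM to 0.302, 0.18 and 2.17 CPM (-5.38, SE 1.27, adjusted p = 0.00935), and the ligand gene Wnt6 (-5.33, SE 1.07, adjusted p = 0.00398). Of 16 Notch genes 3 fell (18.8%), led by the target gene Hey2, from 29.7 to 50.4 CPM to 1.36, 2.07 and 0.828 CPM (-4.9, SE 0.84, adjusted p = 0.00163). The Wnt count was 2 without Neu-NT section 1 and 3 without WT organoids 1 or section 2, and the Notch count was 1 without section 1. Smad7, which TGF-beta induces to restrain its own pathway, rose from 7.12 to 12.3 CPM to 31.3, 48.9 and 49 CPM (2.27, SE 0.44, adjusted p = 0.00324), while the TGF-beta and BMP list as a whole had 2 genes up and 2 down of 25, 8% each. Without section 3 these counts were 4 and 5, and without any other library 1 rose and, for WT organoids 2 or 3 and sections 1 and 2, 1, 1, 0 and 1 fell. Cdh2, the N-cadherin gene, fell from 16.1 to 22.6 CPM to 0.586 to 0.945 CPM (-4.53, SE 0.83, adjusted p = 0.00233).

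Beyond the lists, several of the largest rises were genes with almost no counts in WT organoids. Ikzf3 (chromosome 11, 98464902 to 98546031), the gene of the lymphocyte factor Aiolos, which lies next to Grb7, had 1 count over the WT libraries and stood at 2.57, 102 and 2.54 CPM in sections 1 to 3 (4129-fold, 95% counting interval 740 to 163173, adjusted p = 0.00264). It was high in section 2. Kng2, a kininogen gene, had 3 WT counts and stood at 68, 23.5 and 4.09 CPM (1391-fold, interval 475 to 6749.7, adjusted p = 0.000791), and Lemd1, of the LEM domain family, had 3 WT counts and stood at 33.9, 37.6 and 9.99 CPM (1115-fold, interval 381 to 5409.7, adjusted p = 0.00386). Both were lowest in section 3. The membrane mucin gene Muc4, whose product binds ErbB2, stood at 0.0516, 0.171 and 0.0922 CPM in WT organoids and at 0.227, 6.58 and 439 CPM in the sections (10.37, SE 2.3, adjusted p = 0.0069, and 4.92 without section 3). Mmp7, a matrix protease gene, had no WT count and stood at 0.151, 0.406 and 45.2 CPM (at least 600-fold, adjusted p = 0.0184, 0.114 without section 3, and 0.0575 to 0.065 without any WT library).

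The largest falls left almost no transcript in any section. Dmbt1, a secreted scavenger receptor gene, stood at 139, 139 and 85.3 CPM in WT organoids and had 3 counts over the sections (2814-fold lower, 95% counting interval 963 to 13647, adjusted p = 0.00593). Atp6v0a4, a subunit gene of the proton pump of acid-secreting cells, stood at 183, 110 and 115 CPM and at 0.832, 0.27 and 0.155 CPM (-8.26, SE 1.52, adjusted p = 0.00246). Tmem213, which is also known from acid-secreting kidney cells, stood at 7.36 to 14.7 CPM and had no count in the sections (at least 229-fold lower, adjusted p = 0.00246). Gsg1l, an AMPA receptor auxiliary subunit gene, fell from 19.7 to 31.3 CPM to at most 0.259 CPM (-7.7, SE 1.62, adjusted p = 0.00521).

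Of 29 named long noncoding genes 1 rose and 4 fell (median -0.54), with 2 and 7 without Neu-NT section 3, and 1 and 2 falling without WT organoids 3 and without Neu-NT section 1. Gas5, given above, was among those that fell. The largest rises over all long noncoding genes were of genes with few counts in WT organoids. Gm14133, a lincRNA gene on chromosome 2 (149743927 to 149798743), had 1 count in WT organoids and stood at 30.2, 43.1 and 7.35 CPM (adjusted p = 0.00676), and Gm6878 (chromosome 14, annotated antisense) went from 0.103 to 0.215 CPM to 26.5, 41.9 and 6.11 CPM (7.1, SE 1.17, adjusted p = 0.0013). Gm16010 (chromosome 9, antisense) stood at 30.3, 47.5 and 0.621 CPM, against 0.0615 to 0.181 CPM in WT organoids (7.66, SE 1.73, adjusted p = 0.00753). These 3 were lowest in section 3. Among the falls, Gm11613 went from 8.08, 13.1 and 17.3 CPM to 1.47, 2.88 and 3.73 CPM (-2.25, SE 0.36, adjusted p = 0.00108), and Cep83os from 17.7, 19.7 and 20.1 CPM to 3.55, 5.32 and 8.23 CPM (-1.75, SE 0.34, adjusted p = 0.00312). Gm11766 fell from 16.9 to 23.8 CPM to 3.02, 4.06 and 0.673 CPM (-2.91, SE 0.63, adjusted p = 0.00615). All sections lay below WT in these 3, and section 3 was highest in Gm11613 and Cep83os and lowest in Gm11766. The counting strand is not given in the sources used here, so reads of an antisense gene and of its partner cannot be told apart.

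Set against PyMT tumor sections, where both sides are tumor tissue, 959 genes were higher in Neu-NT sections (5.13%) and 855 lower (4.57%), in all 9.7% of those tested, and without Neu-NT section 3, 1565 (8.39%) and 1530 (8.2%). Erbb2 stood at 110, 68.5 and 110 CPM in the PyMT sections and was higher in every Neu-NT section (log2 difference 2.88, SE 0.45, adjusted p = 0.00195). Of the 11 genes from Med1 to Grb7 8 were higher. The part of the chromosome-wide shifts of either tumor group in these counts was not tested. Basal markers had 4 of 22 higher and none lower, luminal markers 4 of 26 higher and 2 lower, and immune marker lists had no call in any of the 5. Of 31 interferon response genes 1 was called, Bst2, at 84.5, 63.3 and 81 CPM in PyMT sections (1.9, SE 0.39, adjusted p = 0.00882), with a list median of 0.51. The Neu-NT and PyMT comparisons with WT organoids share their WT libraries, so the tests here set the tumor sections against each other directly.

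Some genes were close to 0 in every Neu-NT section and present in every PyMT section. Gabra4, a GABA receptor subunit gene, stood at 21.9, 12.9 and 52 CPM in PyMT sections and at 0.0378, 0.0451 and 0.0518 CPM in Neu-NT sections, 3 counts in all (adjusted p = 0.000564), and at most 0.0427 CPM in WT organoids. Npy, the neuropeptide Y gene, stood at 40.7, 29.5 and 12.5 CPM and at 0 to 0.0518 CPM, 2 counts in all (adjusted p = 0.0109). Among rises, the adhesion receptor gene Adgrg7 stood at 39.8, 25.3 and 0.518 CPM in Neu-NT sections and at no more than 0.0396 CPM in PyMT sections (9.61, SE 1.59, adjusted p = 0.00436), and Itih2, a gene of the hyaluronan-binding inter-alpha-trypsin inhibitors, at 46.8, 21.4 and 0.518 against 0.238 to 0.251 CPM (6.54, SE 1.02, adjusted p = 0.00195). Both lay above every PyMT section in all 3 Neu-NT sections, and section 3 was far below sections 1 and 2. The calls of these 4 genes held without any 1 library of either tumor group, and with only the compared groups in the fit those of Adgrg7 and Itih2 were lost (adjusted p = 0.057 and 0.0771). The counts of the whole comparison did not hold as well: they ranged from 330 to 1565 higher and from 294 to 1530 lower genes with 1 library left out.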

How the data were processed

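The deposited values are raw read counts per gene, per the file headers and whole-number values. The submitters' processing notes name CASAVA, FastQC, STAR, HTSeq, DESeq2 and the mm10 build. Versions, strand setting and annotation release are not given in the sources used here. Rows that name no gene (no feature 5.6 to 10.86%, ambiguous 4.73 to 6.7% in the 6 libraries) were left out. Gene IDs were matched to GENCODE M21 (44585 of 45318).

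Counts of all 20 libraries were fitted in 1 model of 7 groups with edgeR 4.0.16 (R 4.3.3; TMM scaling, filterByExpr, robust quasi-likelihood test), p-values were adjusted over all 18698 tested genes, and the script was tested on simulated data. CPM are TMM-scaled. Bounds set a gene without counts at 3 counts over its group. Intervals are exact 95% intervals and cover counting error only.

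The 44 gene lists and the genes named were chosen with earlier results of these data known. Named were the 12 largest rises and falls among coding genes whose groups did not overlap and whose higher group reached 10 CPM, up to 4 members of a list in each direction by smallest p, 4 long noncoding genes each way, the chromosome 11 genes, 8 genes each way against PyMT sections, and 8 each way that set section 3 apart. Of these, those that best show each pattern are printed. A further 27 genes fall outside that rule and were chosen after their values were seen. Same-numbered libraries correlated at 0.0275, 0.0264 and 0.0428 in their deviations from group means, so numbers were not taken as pairs. Alternatives were RLE scaling, no filter, DESeq2 1.42.0, fitting only the compared groups, a replicate block, summing sections 1 and 2, and leaving out libraries. A member of the interferon list is counted in it but not reported here by name.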

Additional observations from a re-analysis of the deposited data

Results flagged for a closer look

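Among the 12 largest rises and 12 largest falls against WT organoids, 7 genes also differed between Neu-NT and PyMT sections by edgeR's test of that difference. Over all genes tested 9.7% did. These genes were picked for their Neu-NT values, which this test uses again, so their number is a description. The casein gene Csn2 was higher by 8.55 on the log2 scale in Neu-NT sections (adjusted p = 0.0191, and 0.109 without Neu-NT section 3), and stood at 13.7, 37 and 15 CPM in PyMT sections. Glycam1, a milk mucin gene, differed by 11.77 (adjusted p = 0.0159), a call lost without Neu-NT section 3 (0.308), without any 1 PyMT section (0.0546 to 0.0703) or with only the compared groups in the fit (0.141). Ikzf3 differed by 5.57 (adjusted p = 0.0305, and 0.0095 without section 3), Kng2 by 6.96 (0.00561 and 0.00098) and Lemd1 by 9.29 (0.00943 and 0.00475). Pgr differed by -4.81 (adjusted p = 0.014, and 0.0119 without section 3), with PyMT sections at 3.12, 2.76 and 2.02 CPM, and Gsg1l by -5.38 (0.036 and 0.0407). The causes of these differences were not tested.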

How the results depend on the processing

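The labels do not say whether libraries of the same number share an animal, and the replicate block was run as an alternative. With the block and only the compared groups, 903 genes were higher and 799 lower than in WT organoids. Against PyMT sections the block left 0 and 0, with 2948 genes at an unadjusted p under 0.05 by edgeR, and DESeq2 without a block called 1558 and 1446. Against WT, summing sections 1 and 2 gave 942 lower genes, and leaving out libraries gave 927 to 2728 higher and 832 to 2656 lower, the top values without both Neu-NT section 3 and replicate 3 of the PyMT organoids cultured for 6 days. Against PyMT sections, fitting only the compared groups gave 178 higher and 149 lower, summing gave 483 and 328, no filter gave 558 lower, and leaving out libraries gave 330 to 2151 higher and 294 to 2166 lower, with the same pair left out at the top. Of the 3555 calls against WT, 3475 were kept with RLE scaling, 3469 with DESeq2, 2449 with only the compared groups, 1514 with the block, 2747 with no filter and 2394 with summing. With the block, calls against WT lost among the genes printed were those of Erbb2 (adjusted p = 0.0697), Stard3 (0.0518), Med1 (0.179), Cdk12 (0.231), Ppp1r1b (0.183), Erbb4 (0.0615), Csn2 (0.0611), Ltf (0.082), Wap (0.926), Cldn4 (0.0625), Cldn7 (0.1), Krt5 (0.0704), Cxcl10 (0.0577), Ifit1 (0.103), Rsad2 (0.149), Rps6 (0.0576), Pdia4 (0.0712) and Ctsh (0.0666). Fewer samples or genes enter some of these fits, and beyond that the cause was not tested.

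Some fold changes against WT changed sign. With libraries left out, they ranged from -0.12 to 0.32 for Mbp, -0.51 to 0.19 for Mki67, -0.42 to 0.15 for mt-Cytb, -2.53 to 2.15 for Krt17, -8.43 to 0.92 for Krt19, -1.58 to 7.8 for Wap, -2.56 to 5.12 for Csn1s1, -0.97 to 2.76 for Acly, -0.04 to 0.41 for Cdh1, -0.65 to 0.18 for Ddx58 and -0.03 to 0.25 for Ifit2. With the block Krt17 was at -1.19, Krt19 at -6.82 and Csn1s1 at -1.13, and with sections 1 and 2 summed mt-Cytb was at 0.09 and Ddx58 at 0.18. Depth limits what can be said of genes with 3 or fewer counts in a group.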
